A study of Mus musculus with 4 samples.

Results

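The class IIa histone deacetylases Hdac4, Hdac5, Hdac7 and Hdac9 and the transcription factors Mef2a, Mef2c and Mef2d were followed at the mRNA level in C3H10T1/2 cells, a mouse embryo-derived mesenchymal stem cell (MSC) line that can be directed toward bone, cartilage, fat or muscle. These 7 genes were taken by their symbols from a deposited table of 54532 genes, and all 7 were among the 13233 genes with a mean of at least 1 CPM (counts scaled by TMM to a common library size). The study asked how depletion of DNMT1, an enzyme that renews DNA methylation after replication, alters transcription before and during early osteoblast (OB) differentiation. Poly(A) RNA was sequenced from 4 groups with 1 library each. Cells of the control group were transfected for 48 h with a control siRNA and not induced, and those of siDNMT1 received an siRNA against DNMT1 and were likewise not induced. The OB group received the control siRNA and was then kept for 3 days in osteogenic medium, which contained dexamethasone, 50 µM ascorbic acid and 10 mM glycerophosphate, and siDNMT1_OB received the DNMT1 siRNA before the same induction. All 4 groups are therefore transfected cultures of 1 cell line, and the differences below have no replicate check and no p-value for any pair of libraries. By the labels, no group was kept for the 3 further days without osteogenic medium. Medium and added time in culture therefore cannot be told apart, and induction below means both.

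The libraries held between 22296046 and 27367792 counts, and the floor of 3 counts came to between 0.111 and 0.133 CPM. Dnmt1 itself was at 265 CPM in control and 132 in siDNMT1, and at 85.4 in OB and 93.1 in siDNMT1_OB. It was thus lower in siDNMT1 than in control, but the library labelled siDNMT1_OB did not have less of it than OB, so directions drawn from that library rest on its label. Mesenchymal markers (Thy1, Eng, Cd44, Ly6a, Pdgfra, Pdgfrb, Vim, Col1a1 and Col1a2 among them) passed the filter in 9 of 10 cases and summed to between 24800 and 31400 CPM, whereas 0 of 8 skeletal muscle markers passed it, with a summed level of 1.48 to 2.36 CPM and Myod1, Myf5 and Myh3 at 0 in every library. Among the mesenchymal markers Ly6a was called lower in siDNMT1 than in control (a log2 fold change of −1.03, where a call needs 1 in size and a counting interval without 0), Pdgfra higher in both comparisons of induction (2.47 and 1.56) and Thy1 higher in siDNMT1_OB than in siDNMT1 (1.22). That was 1 of 9 tested markers lower in siDNMT1 against control, beside 1.33% of all tested genes. It was 1 of 9 higher in OB against control, beside 10.6%, and 2 of 9 higher in siDNMT1_OB against siDNMT1, beside 6.82%. Of 8 osteoblast markers 4 passed the filter, and Bglap, the late osteoblast gene for osteocalcin, had at most 3 counts in any library. Alpl, the gene for alkaline phosphatase, an early osteoblast marker, had 0, 1, 2 and 0 counts in control, siDNMT1, OB and siDNMT1_OB. In the same order Sp7 had 5, 1, 8 and 4 and Ibsp 1, 3, 6 and 17, so both were under the filter too.

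Class IIa deacetylases shuttle between nucleus and cytoplasm. In the nucleus they bind MEF2 factors through an N-terminal region and hold MEF2 target genes silent together with corepressors such as NCoR, since their own deacetylase activity is weak. Kinases including CaMK, protein kinase D and the salt-inducible kinases phosphorylate them, 14-3-3 proteins then keep them in the cytoplasm, and MEF2 is freed to recruit coactivators. In the skeleton this switch is known for the control of chondrocyte hypertrophy, where Hdac4 restrains Mef2c and Runx2, and Mef2c is also known for driving Sost in osteocytes. Hdac9 yields, besides the full protein, a truncated product that binds MEF2 but lacks the catalytic domain, and Mef2 genes are in turn known to activate Hdac9. These are regulatory steps at the level of protein and location, which counts of mRNA do not show.

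The promoters of the genes that differed most are shown first, beside that of a gene that did not, because CpG dinucleotides are the substrate of DNMT1. The sequences are RefSeq promoter windows on build GRCm38.p6 (250 bases before to 50 after an annotated start), written 5′ to 3′ on the strand of the gene with every CpG in capitals. Hdac9 has promoter 1 at chr12:34917046-34917345 and promoter 2 at chr12:34528840-34529139, both on the minus strand. Mef2c has promoter 1 at chr13:83503784-83504083, promoter 2 at chr13:83523406-83523705 and promoter 3 at chr13:83573357-83573656, all on the plus strand. Hdac4, at chr1:92180292-92180591 on the minus strand, stands for a CpG-rich promoter.
Hdac9 promoter 1: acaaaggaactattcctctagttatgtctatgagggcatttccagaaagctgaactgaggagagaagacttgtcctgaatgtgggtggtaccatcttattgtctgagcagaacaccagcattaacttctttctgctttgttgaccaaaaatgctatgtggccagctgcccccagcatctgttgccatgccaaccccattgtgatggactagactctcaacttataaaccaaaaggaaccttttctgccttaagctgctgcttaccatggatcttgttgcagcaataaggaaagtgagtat
Hdac9 promoter 2: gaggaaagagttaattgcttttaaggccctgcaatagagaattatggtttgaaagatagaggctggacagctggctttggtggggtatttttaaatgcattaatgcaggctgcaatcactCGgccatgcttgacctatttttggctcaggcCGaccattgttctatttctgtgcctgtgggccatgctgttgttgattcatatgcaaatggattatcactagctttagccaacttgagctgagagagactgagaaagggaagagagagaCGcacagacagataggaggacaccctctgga
Mef2c promoter 1: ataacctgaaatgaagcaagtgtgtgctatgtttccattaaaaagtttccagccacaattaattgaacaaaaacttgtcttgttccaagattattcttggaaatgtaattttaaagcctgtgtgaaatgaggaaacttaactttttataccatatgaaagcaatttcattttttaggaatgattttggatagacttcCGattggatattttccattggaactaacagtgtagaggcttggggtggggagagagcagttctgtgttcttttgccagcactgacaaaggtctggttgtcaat
Mef2c promoter 2: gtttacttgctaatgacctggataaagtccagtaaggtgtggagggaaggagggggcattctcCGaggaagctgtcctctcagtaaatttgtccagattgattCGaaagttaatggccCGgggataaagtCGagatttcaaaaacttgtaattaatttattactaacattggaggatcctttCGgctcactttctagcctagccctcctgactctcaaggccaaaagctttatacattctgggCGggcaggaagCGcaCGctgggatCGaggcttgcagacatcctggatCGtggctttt
Mef2c promoter 3: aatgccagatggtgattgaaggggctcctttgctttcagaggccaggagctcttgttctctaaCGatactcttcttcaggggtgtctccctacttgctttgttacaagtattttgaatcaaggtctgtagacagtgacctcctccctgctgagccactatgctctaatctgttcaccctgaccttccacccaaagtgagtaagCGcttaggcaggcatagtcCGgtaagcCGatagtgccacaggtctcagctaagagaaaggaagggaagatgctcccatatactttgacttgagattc
Hdac4 promoter: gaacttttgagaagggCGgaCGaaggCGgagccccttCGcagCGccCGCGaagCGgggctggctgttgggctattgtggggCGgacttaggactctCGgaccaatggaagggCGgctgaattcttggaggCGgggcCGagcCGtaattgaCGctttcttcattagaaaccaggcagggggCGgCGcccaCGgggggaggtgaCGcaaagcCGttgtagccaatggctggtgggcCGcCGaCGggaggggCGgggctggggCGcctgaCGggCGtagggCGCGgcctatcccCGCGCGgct

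Both Hdac9 windows were poor in CpG, with 0 and 3, and the Mef2c windows held 1, 10 and 4. The Hdac4 window held 32 CpG, more than 90.5% of the 32851 windows in the table, whose median was 7. Hdac5 had 18, Mef2a 27 and Mef2d 24, while the 4 windows of Hdac7 held 6, 35, 31 and 5. Hdac7, which like Hdac4 was not called, thus also had windows within the range of Hdac9 and Mef2c. GC content ranged from 35.7% in the first Mef2c window and 44.0% in the first Hdac9 window to 72.0% in Mef2d and 73.7% in the third Hdac7 window, with 68.0% in Hdac4. All 7 genes were matched, with 13 windows in all. The start that each cell uses is not known from these counts, methylation was not analysed here, and whether CpG number went with the change in mRNA over all genes was not tested.

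**Figure D1:**
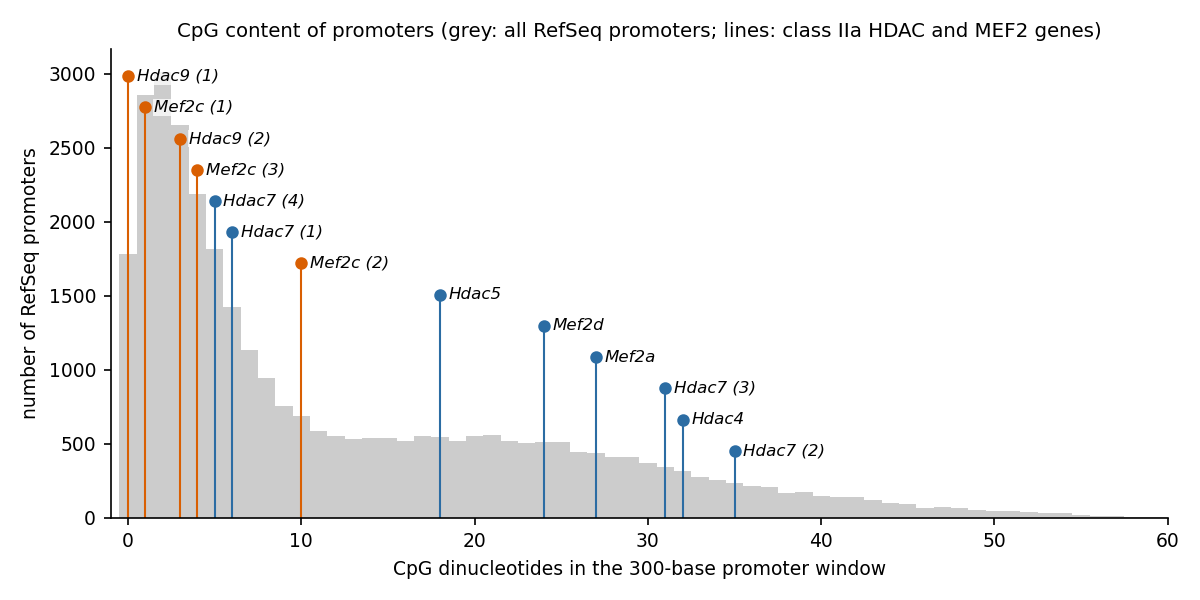
Number of CpG dinucleotides (x axis) in each 300-base RefSeq promoter window. Grey bars count all windows (y axis), and vertical lines mark the windows of Hdac9 and Mef2c (orange) and of Hdac4, Hdac5, Hdac7, Mef2a and Mef2d (blue), with the window's number in brackets where a gene has several. Line height has no meaning. The 5 orange lines lie between 0 and 10 CpG, and the blue lines between 5 and 35.

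A search of the same windows for the MEF2 motif, the AT-rich element bound by MEF2 factors, which is its own reverse complement and so is read on both strands at once, found it in 2 of the 13 windows, against 3.19% of all windows. These matches, shown in capitals with their flanks, lay at chr11:102230183-102230192 in Hdac5, beginning 20 bases before the start, and at chr7:67372851-67372860 in Mef2a, beginning 2 bases before it, both read on the minus strand.
Hdac5 motif: gggtctgagcCTATTTTTAGctcggggtcg
Mef2a motif: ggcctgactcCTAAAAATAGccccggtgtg
No match was found in the Hdac9, Mef2c, Hdac4, Hdac7 and Mef2d windows, which says only that those letters are not in these windows. A match is a description of sequence, and no binding was measured here.

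On the scale of RPKM, which divides a level by gene length and so lets genes be set side by side, the class IIa deacetylases kept 1 order in all 4 libraries, Hdac7 first, then Hdac5, Hdac4 and Hdac9. Hdac7, best known from blood vessels and thymocytes, had levels of 25.2 (control), 28.3 (siDNMT1), 27.2 (OB) and 31.2 RPKM (siDNMT1_OB). Hdac5, a signal-responsive repressor of the heart, had 11.4, 17.4, 11.7 and 14.2 RPKM in the same order of libraries. Hdac4, the member that restrains chondrocyte hypertrophy, lay well below them at 2.13, 2.46, 2.13 and 2.10 RPKM. Hdac9 was the scarcest at 0.136, 0.487, 0.0754 and 0.431 RPKM, so that its share of the summed class IIa mRNA was 0.349%, 1.0%, 0.184% and 0.898%. With no division by length the shares were 0.651%, 1.83%, 0.344% and 1.68%. The summed level of the class was 38.9 RPKM in control and 41.1 in OB, but 48.6 in siDNMT1 and 47.9 in siDNMT1_OB. Both DNMT1 siRNA libraries were therefore above both control siRNA libraries in the sum, and most of that difference in level lay in Hdac5 and Hdac7.

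Among the MEF2 genes, Mef2d, a broadly expressed member, had a level of 10.9 RPKM in both control and OB, of 13.0 in siDNMT1 and of 11.5 in siDNMT1_OB. Mef2a followed with 4.40, 4.84, 6.74 and 7.64 RPKM in control, siDNMT1, OB and siDNMT1_OB, and Mef2c, the form tied to heart, muscle and cartilage, with 0.784, 2.33, 1.08 and 2.22 RPKM. The order of Mef2d and Mef2a depended on the length used, and it reversed in OB and siDNMT1_OB. The deposited length sums all exons of a gene. Divided by the longest coding transcript instead, Mef2a held 54.1% of the MEF2 sum in OB and 51.9% in siDNMT1_OB against 36.5% and 32.7% for Mef2d. By that length Mef2d held 47.0% against 45.4% for Mef2a in control, where their counting intervals overlapped, so that they could not be ordered. In siDNMT1 it held 43.4% against 38.7%. Mef2c came after both with either length, and its share of the MEF2 sum by deposited length was 4.87% in control and 5.65% in OB, against 11.5% in siDNMT1 and 10.2% in siDNMT1_OB. By the longest coding transcript these shares were 7.63% and 8.17%, against 17.6% and 14.3%. The remaining family gene, Mef2b, did not pass the filter, with 0, 3, 12 and 16 counts. Its 0 counts in control allow a level of up to 0.111 CPM by the floor of 3 counts (0.136 as the upper end of the exact interval), and it shares exon bases with Borcs8 on the same strand, which had 448 to 557 counts, so its reads are uncertain. Across both families and by the deposited length, the counting intervals of Hdac5 and Mef2d overlapped in control and in OB, and those of Hdac4 and Mef2c overlapped in siDNMT1 and in siDNMT1_OB, so these neighbours could not be ordered there. By the longest coding transcript Hdac5 was above Mef2d in control (20.5 against 12.1 RPKM) and OB (21.1 against 12.1), and Mef2c above Hdac4 in siDNMT1 (5.83 against 4.79) and siDNMT1_OB (5.57 against 4.09).

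**Figure D2:**
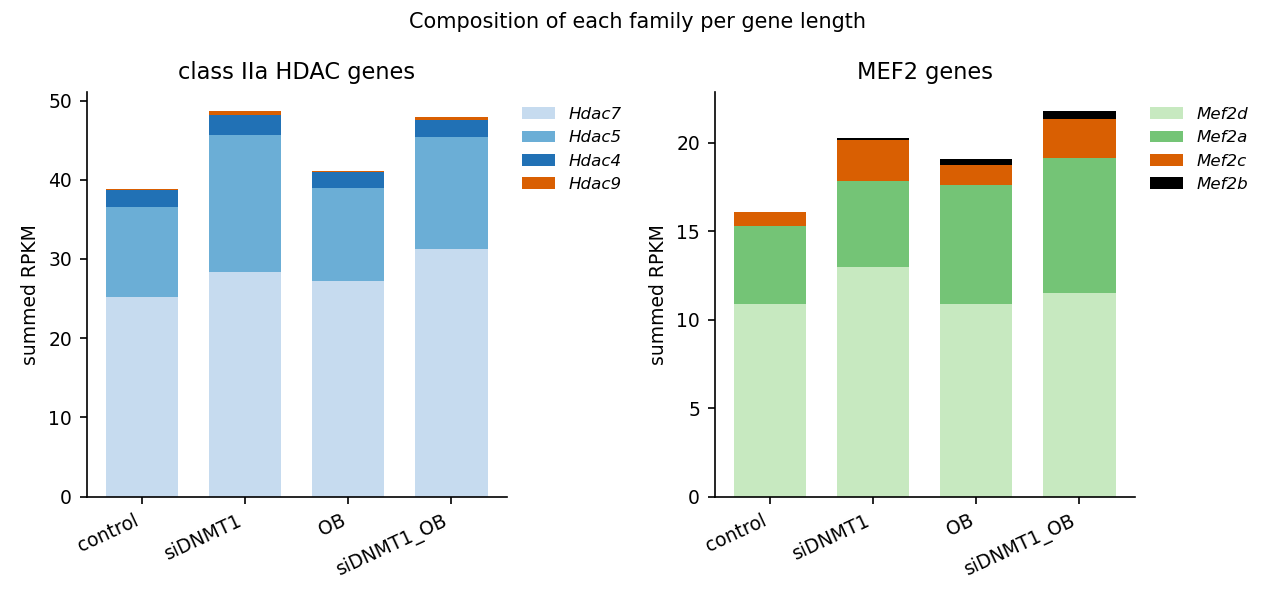
Summed RPKM (y axis) of the 4 class IIa HDAC genes and of the 4 MEF2 genes in each library (x axis), with 1 segment a gene and the deposited gene length. Hdac7 and Hdac5 make up most of the deacetylase sum in each library, Hdac9 is a thin segment of at most 1.0%, and the Mef2c segment is 11.5% and 10.2% in the siDNMT1 and siDNMT1_OB libraries.

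Hdac9 (ENSMUSG00000004698, chr12:34047580-34917095, minus strand, 870 kb) had 54 counts in control against 183 in siDNMT1, and 25 in OB against 169 in siDNMT1_OB. In the order control, siDNMT1, OB and siDNMT1_OB, these correspond to 1.99 CPM (95% exact Clopper-Pearson interval of the count 1.5 to 2.6), 7.14 (6.15 to 8.26), 1.11 (0.715 to 1.63) and 6.32 (5.4 to 7.34). Both DNMT1 siRNA libraries were high and both control siRNA libraries low, and none of the intervals of the first pair reached those of the second. In uninduced cells the log2 fold change of siDNMT1 over control (prior count 2) was 1.80 (1.40 to 2.31), the 46th highest of 13233 genes. The ratio of the CPM values, without a prior count, was 3.59. After induction, the log2 fold change of siDNMT1_OB over OB was 2.43 (1.90 to 3.18), the 12th highest, and the ratio of CPM was 5.71. Such intervals cover counting error only and leave out how separate cultures vary, since each group is 1 library. Reads carried no molecular identifiers, so copies of 1 molecule were not told apart and the intervals may be too narrow. No other gene shares exon bases with Hdac9, and its counts pool 8 coding transcripts of 114 to 1067 amino acids in GENCODE M21, so that full-length and truncated forms are not separated.

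Mef2c (ENSMUSG00000005583, chr13:83504034-83667080, plus strand) had 334 counts in control against 938 in siDNMT1, and 383 in OB against 935 in siDNMT1_OB. Its levels in that order were 12.3 CPM (11.0 to 13.7), 36.6 (34.3 to 39.0), 16.9 (15.3 to 18.7) and 34.9 (32.7 to 37.3), again with both DNMT1 siRNA libraries above both control siRNA libraries. The log2 fold change was 1.57 (1.39 to 1.76), or 2.97-fold, in uninduced cells, the 82nd highest of all tested genes. It was 1.04 (0.87 to 1.22), or 2.06-fold, in induced cells, the 277th highest, which is close to the threshold of 1. No other gene shares exon bases with Mef2c, and its count pools 27 coding transcripts.

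To be called higher or lower, a gene needed a log2 fold change (prior count 2) of 1 or more in size and a counting interval that excluded 0. By this rule 2 of the 7 genes, Hdac9 and Mef2c, were higher and 0 were lower in siDNMT1 than in control, where 1.87% of all tested genes were higher and 1.33% lower. After induction the same 2 genes were higher and 0 were lower with the DNMT1 siRNA (the library labelled siDNMT1_OB against OB), beside a background of 2.35% higher and 1.36% lower. These comparisons share no library. When genes below a mean of 5 CPM were left out, Hdac9 was not among the genes tested. Mef2c alone of the remaining members then met the rule, beside 1.01% of all genes higher in uninduced and 1.71% in induced cells.

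**Figure D3:**
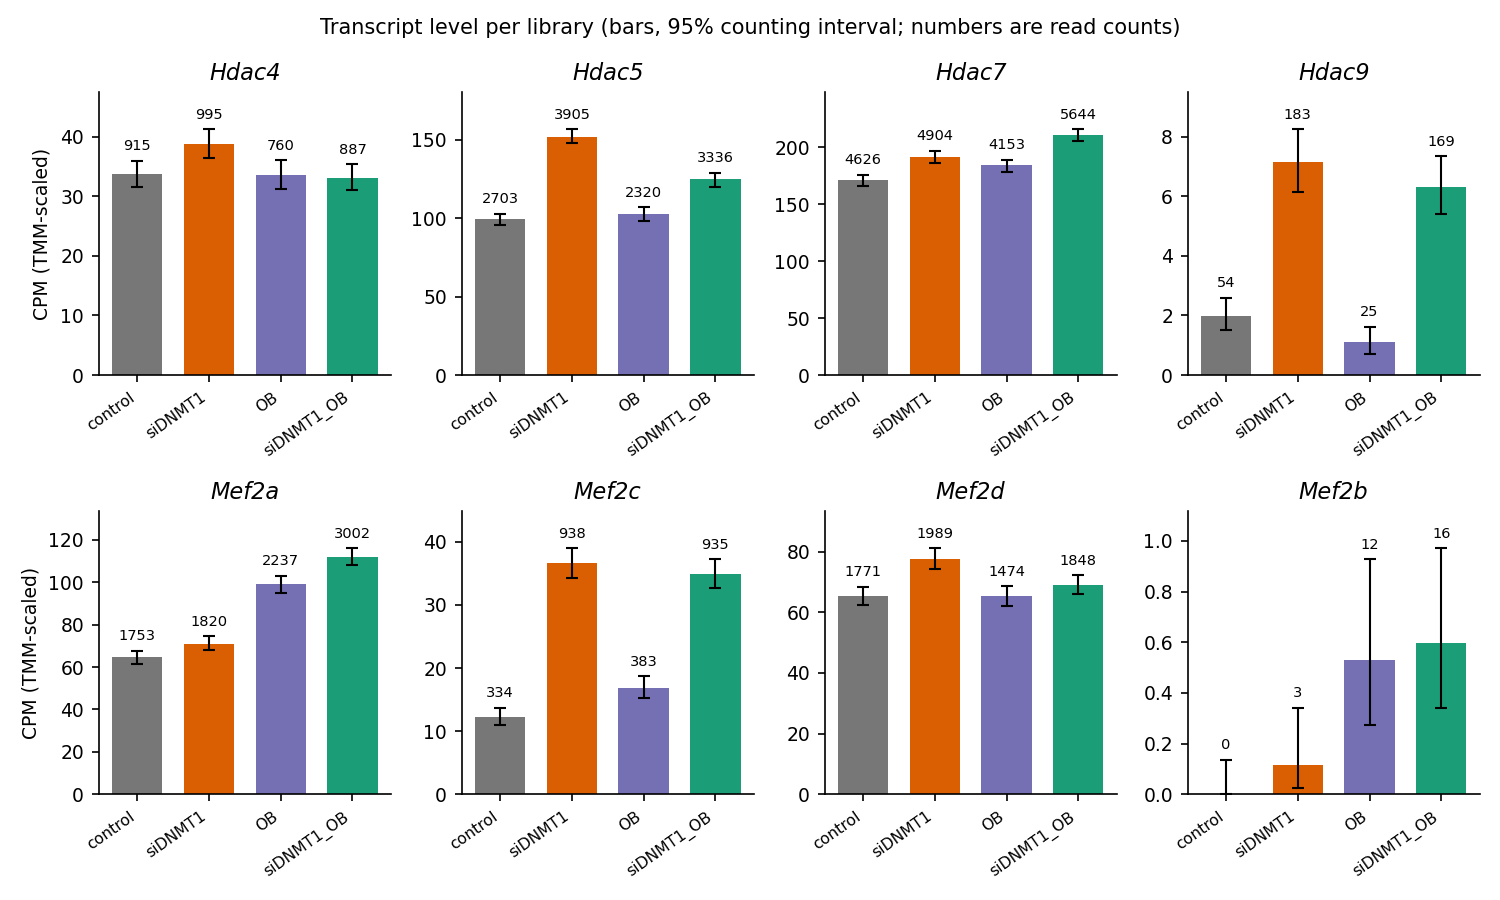
Level in CPM (y axis, linear, its range differing between panels) of each gene in the 4 libraries (x axis), with the 95% exact counting interval as the error bar and the read count above each bar. There is 1 library a group and no replicate error. Hdac9 and Mef2c are high in siDNMT1 and siDNMT1_OB, Mef2a is high in OB and siDNMT1_OB, and Mef2b has at most 16 counts.

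The other 5 genes stayed under the threshold in both comparisons. Hdac5 came closest, with 2703 counts (99.7 CPM) in control, 3905 (152 CPM) in siDNMT1, 2320 (103 CPM) in OB and 3336 (125 CPM) in siDNMT1_OB. It too was higher in both DNMT1 siRNA libraries than in either control siRNA library, by a log2 fold change of 0.61 (0.54 to 0.68) without and 0.28 (0.20 to 0.36) with induction. Hdac7 was at 171, 191, 184 and 211 CPM in the same order of libraries, with 0.17 (0.11 to 0.22) and 0.20 (0.14 to 0.26). It shares exon bases with Slc48a1 on the opposite strand, which had 1947 to 2524 counts, and since the use of strand in counting is not given in the sources used here, part of the Hdac7 count may belong to that gene. Mef2a was at 64.6, 71.0, 98.9 and 112 CPM, with 0.14 (0.04 to 0.23) and 0.18 (0.10 to 0.26). Mef2d was at 65.3, 77.6, 65.2 and 69.1 CPM, with 0.25 (0.16 to 0.34) and an induced value of 0.08 (−0.02 to 0.18) whose interval held 0. Hdac4, finally, was at 33.7, 38.8, 33.6 and 33.1 CPM, with 0.20 (0.07 to 0.33) in uninduced and −0.02 (−0.16 to 0.12) in induced cells.

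In uninduced cells all 7 values were above 0 with intervals that excluded it, as was the case for 26.0% of all tested genes, and their median was 0.25 beside −0.00 over all genes. In induced cells 5 of 7 had an interval above 0, against 27.6% of all genes, with a median of 0.20 beside 0.01. The shift of the family as a whole was thus small, and the interval measures reads of 2 libraries, not repeated cultures. Whether an interval excludes 0 also depends on the number of reads. The shares over all genes were not matched for level and included genes down to a mean of 1 CPM.

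**Figure D4:**
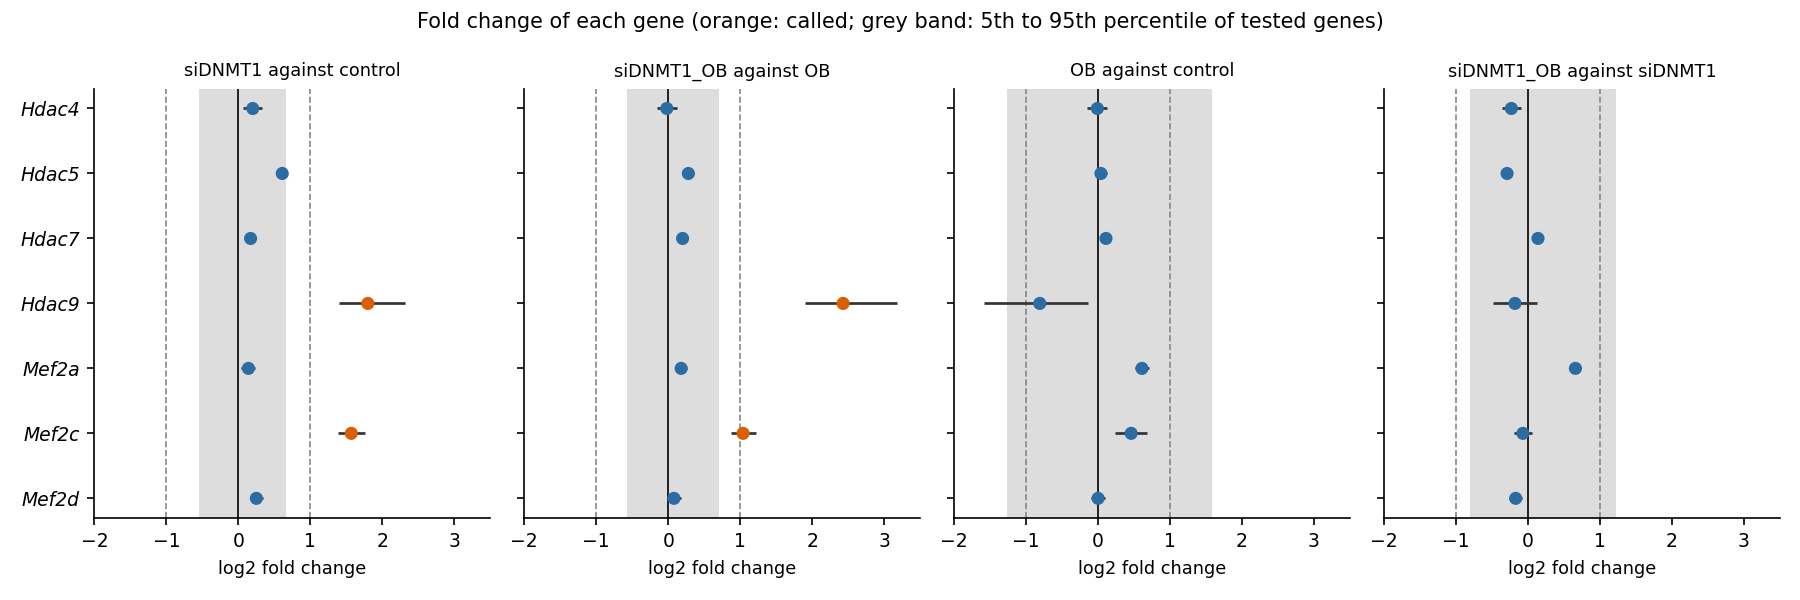
Log2 fold change (x axis) of each of the 7 genes (y axis) in the 4 comparisons, with the 95% counting interval as a line. Dashed lines mark the threshold of 1, the grey band spans the 5th to 95th percentile of all tested genes, and orange marks a gene that met the rule. Hdac9 and Mef2c lie right of the threshold in both comparisons of DNMT1 siRNA with control siRNA, and in the OB comparisons all 7 lie within the threshold.

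The siDNMT1 effect in induced cells minus that in uninduced cells was 0.63 (−0.12 to 1.38) on the log2 scale for Hdac9, an interval that held 0. It was −0.52 (−0.77 to −0.28) for Mef2c, −0.33 (−0.44 to −0.23) for Hdac5, −0.22 (−0.41 to −0.03) for Hdac4 and −0.17 (−0.30 to −0.03) for Mef2d. For Hdac7 and Mef2a it was 0.03 (−0.05 to 0.12) and 0.05 (−0.08 to 0.17). None of the 7 reached 1 in size, as 3.27% of all genes did above 0 and 2.95% below. With 1 library a group this difference could not be tested against replicates, and its value in induced cells rests on the library labelled siDNMT1_OB, whose Dnmt1 level is given above. The ratio of Mef2c to Mef2a mRNA per length, for example, was 0.178 in control and 0.481 in siDNMT1, but 0.160 in OB and 0.291 in siDNMT1_OB. That of Mef2c to Mef2d was 0.0718 and 0.180, then 0.0990 and 0.193. That of Hdac9 to Hdac4 was 0.0636 and 0.198, then 0.0355 and 0.205.

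None of the 7 genes reached the threshold between induced and uninduced cells, which differ in medium and in time in culture. In OB against control, 0 of the 7 genes were higher and 0 lower, while 10.6% of all tested genes were higher and 7.1% lower. In siDNMT1_OB against siDNMT1 the count was again 0 of 7 in either direction, with 6.82% of all genes higher and 2.71% lower. Beside these shares, a count of 0 among so few genes does not set the 7 apart. The comparison of OB against control shares the control library with that of siDNMT1 against control. That of siDNMT1_OB against siDNMT1 shares the siDNMT1 library with it.

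Mef2a was higher after induction with either siRNA. Its 1753 counts in control and 1820 in siDNMT1 stood against 2237 in OB and 3002 in siDNMT1_OB, so that both induced libraries were above both uninduced ones. The log2 fold change was 0.61 (0.52 to 0.71), or 1.53-fold, with control siRNA and 0.66 (0.57 to 0.74), or 1.58-fold, with DNMT1 siRNA. Both values lay under the threshold, and 18.4% and 12.1% of tested genes had higher ones. Mef2a shares exon bases with Lysmd4 on the opposite strand, which had 316, 322, 353 and 372 counts in control, siDNMT1, OB and siDNMT1_OB. Mef2c differed by 0.46 (0.24 to 0.68) with control siRNA and by −0.07 (−0.20 to 0.06) with DNMT1 siRNA. Hdac9 was at −0.81 (−1.59 to −0.14) with control siRNA, on 25 against 54 counts, and at −0.18 (−0.49 to 0.13) with DNMT1 siRNA. Hdac5 had 0.04 (−0.04 to 0.12) and −0.29 (−0.36 to −0.22), Hdac4 −0.01 (−0.15 to 0.13) and −0.23 (−0.36 to −0.10), and Mef2d −0.00 (−0.10 to 0.10) and −0.17 (−0.26 to −0.08). Hdac7 had 0.11 (0.05 to 0.17) and 0.14 (0.08 to 0.20).

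A test across conditions was possible only by an additive model of siRNA and induction over all 4 libraries, which leaves 1 residual degree of freedom and counts any difference between the siRNA effects as error. In edgeR's quasi-likelihood fit the averaged siDNMT1 effect was a log2 fold change of 2.14 for Hdac9 (Benjamini-Hochberg adjusted p = 0.1596) and 1.31 for Mef2c (adjusted p = 0.1648), and 0 of the 7 genes passed an adjusted p of 0.05. The same held for all genes (0.0% of those tested, although 1148 had an unadjusted p under 0.05, Hdac9, Mef2c and Hdac5 among them). DESeq2's Wald test on the same model gave an adjusted p of 0.00178 for Hdac9 and 0.0003336 for Mef2c, and passed 135 genes. For the averaged OB effect, which passed 21.1% of all genes in edgeR, 1 of the 7 passed, namely Mef2a, with a log2 fold change of 0.64 and an adjusted p of 0.02379 (0.01584 by DESeq2). With 1 library a group, these p-values measure only the spread left by the model, not that between repeated cultures.

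The summed level of the smooth muscle markers was 1040 CPM in control and 1220 in OB, against 3470 in siDNMT1 and 3820 in siDNMT1_OB, and so was high in the same libraries as Hdac9 and Mef2c. Nearly all of this sum came from Acta2, the smooth muscle actin that cultured mesenchymal cells also make, which differed by a log2 fold change of 1.79 and 1.71. In uninduced cells Acta2 was the only 1 of 4 tested markers called higher. In induced cells Tagln (1.49) and Cnn1 (3.57) were called higher too, on 77 against 22 and 177 against 11 counts, but both passed the filter only through the libraries in which they were high. Smtn was instead high in both induced libraries, at 47.6, 55.8, 96.8 and 138 CPM in control, siDNMT1, OB and siDNMT1_OB, and Myh11 stayed under the filter. Tek, the only endothelial marker of 5 above the filter, had 51, 152, 63 and 203 counts (1.62 and 1.42), with Tie1 at 0 throughout. The part of these markers in the results for Hdac9 and Mef2c was not tested, and fewer cells of a type and less RNA per cell cannot be told apart in bulk RNA. Skeletal muscle markers stayed under the filter, with at most 31 counts for Acta1 (10, 31, 10 and 24) and 28 for Tnnt3 (18, 2, 28 and 28). Haematopoietic markers summed to at most 0.111 CPM and epithelial ones to at most 1.03 CPM. Cardiac markers summed to 2.69 to 3.98 CPM. Neuronal markers summed to 101, 137, 270 and 315 CPM, mostly from Map2, which was called higher in both comparisons of induction (1.53 and 1.33). Tubb3, at 8.0, 14.1, 1.95 and 4.71 CPM, was instead called lower in both (−2.0 and −1.56). It was called higher in siDNMT1_OB than in OB (1.24). The summed level of the osteoblast markers was 636, 309, 291 and 367 CPM, and their part in these results was not tested either. In siDNMT1 against control Spp1 (−1.41) and Phex (−1.05) were called lower, and in siDNMT1_OB against OB Phex was called lower (−2.26) and Dmp1 higher (1.76), each time 2 of the 4 tested, where 1.87% and 1.33%, and then 2.35% and 1.36%, of all genes were higher and lower. In OB against control Phex was called higher (1.68) and Spp1 (−1.55) and Dmp1 (−2.81) lower, 3 of the 4 tested, beside 10.6% and 7.1%.

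Profiles most like those of Hdac9 and Mef2c, whose log2 levels spanned at least 1 over the libraries, were sought by the Euclidean distance between log2 CPM values centred on each gene's mean over the 4 libraries. Nearest to Hdac9 were Erg (distance 0.57, with 31, 132, 11 and 72 counts in control, siDNMT1, OB and siDNMT1_OB), an ETS transcription factor, Actg2 (0.61, with 481, 1300, 335 and 1655 counts), a smooth muscle actin, and Hecw2 (0.77, with 94, 186, 40 and 155 counts), a ubiquitin ligase. Nearest to Mef2c were Podn (0.12, with 44, 128, 57 and 129 counts), a matrix proteoglycan, Ctxn1 (0.17, with 236, 608, 250 and 559 counts) and Kcna4 (0.28, with 22, 53, 20 and 60 counts), a potassium channel. Erg and Kcna4 passed the filter only through the DNMT1 siRNA libraries, in which they were high. Hdac9 and Mef2c lay 1.21 apart, and the other 5 genes lay 1.78 to 2.28 from Hdac9. From Mef2c, however, Hdac5 (0.92), Hdac7 (1.16) and Mef2d (1.19) lay nearer than Hdac9 did. With 4 points that share libraries and depth, this is a description of likeness in these libraries.

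The remaining deacetylases did not meet the rule in either comparison of siDNMT1 with its control siRNA. For the other 7 zinc-dependent enzymes (Hdac1, Hdac2, Hdac3, Hdac8, Hdac6, Hdac10 and Hdac11) the count was 0 of 7, with medians of 0.01 in uninduced and −0.14 in induced cells, beside −0.00 and 0.01 over all genes. As 1.87% to 2.35% of all genes were higher and 1.33% to 1.36% lower in these comparisons, a count of 0 does not set these enzymes apart. With induction Hdac11, the class IV enzyme, was higher by 1.66 in OB than in control and by 1.25 in siDNMT1_OB than in siDNMT1, on 87, 84, 233 and 212 counts, in comparisons in which 10.6% and 6.82% of all genes were higher. The 7 sirtuins, NAD-dependent deacetylases, gave 0 of 7 in all 4 comparisons, with siDNMT1 medians of 0.19 and −0.04.

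Partners that set the location and activity of class IIa proteins were likewise under the threshold in both siDNMT1 comparisons. The rule was met by 0 of 13 corepressors and scaffold proteins (medians 0.09 and 0.04), 0 of 6 tested 14-3-3 genes (−0.14 and 0.11), 0 of 18 tested export kinases (−0.01 and 0.00) and 0 of 9 phosphatase and protein kinase A genes linked to nuclear import (0.05 and 0.18). Beside the 1.87% higher and 1.33% lower of all genes in uninduced cells, and 2.35% and 1.36% in induced cells, lists of this size are not set apart by a count of 0. Ncor1, which encodes the corepressor NCoR, had 6546, 6596, 5533 and 6702 counts. With induction 3 of the 18 kinases were higher and 1 lower in OB than in control, where 10.6% and 7.1% of all tested genes were. Sik1, a salt-inducible kinase, was furthest from 0, with 437 counts in control and 2114 in OB (2.53), and was also higher in siDNMT1_OB than siDNMT1 (1.67, the 1 kinase that met the rule there). Sik2 was higher by 1.06 in OB, and Camkk1, an upstream CaM kinase, was at −1.28. Of the corepressors Suv39h1, a histone methyltransferase, was lower in OB than in control at −1.49, and none met the rule in siDNMT1_OB against siDNMT1.

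On the side of MEF2, 0 of 13 tested activator genes, such as the kinases Mapk7 and Mapk14 and the calcineurin subunit Ppp3ca, met the rule in any of the 4 comparisons, with siDNMT1 medians of −0.06 and 0.09. The shares over all genes were those given above, the highest being the 10.6% higher and 7.1% lower in OB against control. Of 15 tested coactivators 0 met it in the siDNMT1 comparisons (medians 0.08 and 0.01), counts that again lie near those of all genes, and Nfatc2 was lower in OB than control (−1.14, on 16 against 45 counts), a gene that passed the filter only through the control library. Among them Srf, the serum response factor that works beside MEF2 on muscle promoters, had 1792, 2490, 1110 and 1729 counts, with 0.56 and 0.40. The myogenic partners were not detectable at this depth in a way that allows comparison, since 0 of 6 passed the filter and Myod1, Myf5, Myf6 and Pax7 had 0 counts in every library, which allows up to 0.133 CPM in the shallowest.

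Of 25 genes known as MEF2 targets in muscle, cartilage, bone, immune cells or neurons, only 9 passed the filter, and the muscle genes Ckm, Mb, Xirp2 and Myoz2 had at most 2 counts. In uninduced cells 1 of the 9 was higher with the DNMT1 siRNA, beside 1.87% of all tested genes, and the median was −0.04. That gene was Col10a1, the collagen of hypertrophic cartilage, with 16, 77, 19 and 147 counts in control, siDNMT1, OB and siDNMT1_OB. It was higher by 2.21 in uninduced and by 2.60 in induced cells, on levels of 0.59 CPM in control and 0.84 in OB, and so passed the filter only through the 2 DNMT1 siRNA libraries. In induced cells 2 of 9 were higher, beside 2.35% of all genes, with a median of 0.67, the second being Arc, an immediate early gene of neurons (1.62), on 37 against 9 counts. With induction 3 of 9 were lower in OB than in control, beside 7.1% of all genes, namely Arc (−2.22), Bdnf (−2.02) and Klf4 (−1.44). In siDNMT1_OB against siDNMT1, Klf2 (1.24) and Pgam2 (1.17) were higher and Bdnf (−1.38) was lower, beside 6.82% and 2.71% of all genes. Sost had 0 counts in every library.

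Among 12 genes linked to deacetylases in skeletal cells or fat, 5 passed the filter. Runx2, the master factor of osteoblasts that Hdac4 restrains in cartilage, had 2049, 2459, 1644 and 2327 counts, with siDNMT1 values of 0.35 and 0.26 that stayed under the threshold. Cebpa, a transcription factor of adipocytes, was higher in siDNMT1 than in control (1.34) and in OB than in control (1.87), on 78, 189, 242 and 291 counts, so that control was the low library. Its value in siDNMT1_OB against OB was 0.02. Of all tested genes, 1.87% were higher in siDNMT1 and 10.6% in OB than in control. Zfp521, a zinc finger repressor that acts with Hdac3 on Runx2, was higher by 1.00 in OB than control, at the threshold. The median of the 5 was 0.35 in uninduced and 0.10 in induced cells, beside −0.00 and 0.01 over all genes. Ihh, Pthlh, Mmp13 and Bglap had at most 10 counts in any library.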

How the data were processed

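Poly(A) RNA of 4 cultures, 1 for each group, was sequenced from both ends after TruSeq library preparation. The authors deposited unnormalized whole-number read counts for each gene, together with the gene length, from reads trimmed with Trimmomatic, aligned with HISAT2 (mm10 per the submitters' processing notes) and counted with featureCounts. Tool versions for the RNA reads and the strand setting are not given in the sources used here. From these counts, TMM factors (0.991 to 1.014, edgeR 4.0.16, R 4.3.3) were taken over the genes whose CPM averaged 1 or more, and log2 fold changes used a prior count of 2. Intervals are exact 95% intervals of the counts, computed with SciPy 1.17.1. RPKM was computed from the deposited length.

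The 7 genes, the lists of their partners and targets and the tests were chosen with earlier results of these data known. Besides the 7 genes, Mef2b and Dnmt1, the text names by rule at most 3 genes of each list that met the threshold in a comparison and the 3 nearest profiles; other genes of the lists are named as examples, and these were chosen after their values were seen. The additive model was fitted with edgeR and, as an alternative, DESeq2 1.42.0, with p-values adjusted over all tested genes. Interval coverage and the fit were tested on simulated data, drawn from the counting models that they assume. Such data check the computation, not how separate cultures vary. Scaling, filter, prior count and gene length were varied. Promoter sequences are those of RefSeq (GRCm38.p6), and exon overlaps and transcripts those of GENCODE M21. Gene coordinates are those of the deposited table (GRCm38).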

Additional observations from a re-analysis of the deposited data

Results flagged for a closer look

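For 3 of the genes the 2 values of an effect had opposite signs, but in each pair 1 value lay so near 0 that its counting interval held 0, and the difference was not tested, since each group is 1 library. The siDNMT1 effect on Hdac4 was 0.20 in uninduced and −0.02 in induced cells, a difference of −0.22 on the log2 scale. The OB effect on Hdac5 was 0.04 in control siRNA cells and −0.29 under the DNMT1 siRNA, a difference of −0.33, and with other scalings the first value was as low as −0.01. That on Mef2c was 0.46 and −0.07, a difference of −0.53. In each of these, the second value rests on the library labelled siDNMT1_OB, in which Dnmt1 was at 93.1 CPM against 85.4 in OB.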

How the results depend on the processing

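Over the other scalings, prior counts and filters, all 234 recomputed fold changes of the 7 genes gave the same call, and 6 changed sign, all of them in OB against control and for Hdac4, Hdac5 or Mef2d, whose main values lay between −0.01 and 0.04. Hdac9 ranged from 1.75 to 1.83 in uninduced and from 2.32 to 2.49 in induced cells, and Mef2c from 1.56 to 1.58 and from 1.01 to 1.06. With a mean CPM of at least 5, Hdac9 was not tested and 1 gene was higher in each siDNMT1 comparison. The shares of all genes called higher were then 1.01% in uninduced and 1.71% in induced cells. The averaged siDNMT1 effect passed in 2 genes, Hdac9 and Mef2c, by DESeq2 and likewise in 2 by edgeR with no filter (adjusted p = 3.734e-06 and 1.29e-05), a setting that passed 433 of 27380 genes, and the cause of this difference was not tested. With no division by length, the Hdac9 share of class IIa mRNA was 0.651%, 1.83%, 0.344% and 1.68% in control, siDNMT1, OB and siDNMT1_OB, and the Mef2c share of MEF2 mRNA 8.66%, 19.7%, 9.33% and 16.1%. With the longest coding transcript, an alternative chosen after seeing the data, the Mef2c share was 7.63%, 17.6%, 8.17% and 14.3%. Libraries could not be paired by replicate number because each group holds 1 library. For the same reason no library could be left out of a group. The additive model took induction as a term, and so compared the siRNAs within each state. Depth limits Hdac9, with 25 to 183 counts, and Mef2b most.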
